A study of Mus musculus with 5 samples.

Results

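The 10 glutathione genes described here were measured in mouse embryonic stem (ES) cells and in the sphere cells made from them by Akt activation. They are the glutathione transferases Gstm1, Gstm2, Gstm5 and Gsta4, the glutathione peroxidases Gpx1, Gpx2, Gpx3 and Gpx4, and the subunits Gclc and Gclm of glutamate-cysteine ligase. The list is one of names, and for each gene the probe that the platform annotation gives that symbol was read on all 5 arrays of the series. Of the 10 genes, 9 had a probe, 1 each, among 16032 named genes on the array, and Gpx4 was not analysed here. Genes entered a comparison when each of its arrays listed a value and at least 1 of these values reached its array's 40th percentile, an intensity of 28.6 to 29.3. Of the 9, 7 met this in every comparison, Gpx2 in those that leave out the spheres, and Gpx1 in none.

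All cultures came from feeder-free male ES cells of strain 129 that carry a myristoylated Akt fused to Mer, whose kinase activity 4-hydroxytamoxifen (4OHT) turns on. The Akt-spheres (2 arrays, 1 from line 21 and 1 from line 42) were made with 1 µM 4OHT over a layer of OP9 stroma, the drug being started 3 days before induction, and were plated for 30 minutes to take the OP9 cells away before RNA extraction. The ES-like reverted cells (1 array) came from line 21 spheres through a transient 4OHT treatment on embryonic fibroblasts. Line 21 ES cells grown with 1 µM 4OHT gave 1 array, and line 21 ES cells grown without it gave 1 array. All groups carry the transgene, the spheres differ from both ES cell cultures in medium and feeder and from 1 of them also in 4OHT, and the line of the spheres cannot be told apart from the replicate. Line 42 gave only a sphere array, so that array also differs from every ES-type array in cell line. Each array differs from every other in cell line or culture condition, so none is a repeat of another. The p-values reflect how far these few arrays scatter. Where the 3 ES-type cultures were put in 1 group, that scatter includes differences between these cultures. Where both sphere arrays were used, it includes differences between the 2 sphere lines. Technical scatter cannot be told apart from these differences. All comparisons of spheres share the same 2 sphere arrays, and they and the comparisons among ES-type cultures share ES-type arrays.

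Glutathione is the main thiol antioxidant of cells. Glutamate-cysteine ligase makes the rate-limiting step of its synthesis, with Gclc as the catalytic and Gclm as the modifier subunit. Glutathione transferases join glutathione to reactive or foreign compounds, and glutathione peroxidases use it to reduce peroxides. Several of these genes are known targets of the transcription factor Nrf2 (Nfe2l2), which acts through antioxidant response elements in promoters.

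Values are the authors' deposited intensities (linear scale), with a median of 50.0 on each array and a lowest listed value of 2.96 to 3.66. The summed intensity was 15213653 to 19321075 per array, and 6.09% to 9.11% of 22871 probes per array held no value. Differences are on the log2(value + 1) scale after each array was centred on its median, so those of dim probes are understated. Precision is limited by how few arrays there are. Fewer cells of a type and less RNA per cell cannot be told apart in such samples. Of 8 ES cell markers, Nanog read 5523 and 4003 in spheres of lines 21 and 42 against 3839 to 5480 on the ES-type arrays, while the summed intensity of the 8 was 11061 and 15371 in spheres against 85292 to 97820. The labels call the spheres primordial germ cell-like, and 8 germ cell markers summed to 3499 and 12636 in spheres of lines 21 and 42, 3664 in reverted cells, 1489 in ES cells with 4OHT and 2146 in ES cells without it. Dppa3 alone read 223 and 9198 in spheres, 1626 in reverted cells and 171 and 435 in ES cells with and without 4OHT, and without it the sums were 3276 and 3438 in spheres against 2038, 1317 and 1711. Of the 8, 7 reached the 40th percentile in each sphere line, against 6 in reverted cells, 7 in ES cells with 4OHT and 8 in ES cells without it. The 15 stroma and fibroblast markers summed to 921 and 383 in spheres, 1292 in reverted cells, 1108 in ES cells with 4OHT and 1255 in ES cells without it, with Col1a1 at 17.5 and 17.0 in spheres, 36.0 in reverted cells and 24.4 and 18.6 in ES cells with and without 4OHT. Thy1 and Acta2 made up most of the 3 ES-type sums. Without these 2 the other 13 summed to 815 in line 21 and 305 in line 42 spheres, against 456 in reverted cells, 362 in ES cells with 4OHT and 315 in ES cells without it. Line 21 spheres stood above all other arrays in Mgp (328 against 4.43 to 10.1), Cxcl12 (109 against 8.21 to 48.9) and Col6a1 (31.5 against 4.78 to 9.96). Other markers of the list were lower on both sphere arrays than on each ES-type array. Among them were Thy1, Acta2, Dcn (5.49 and 6.53 against 18.1 to 20.3) and Col3a1 (19.8 and 10.0 against 24.5 to 29.7). Dcn lay under the 40th percentile on every array. The markers named on either side were picked out after their values were seen. The 8 adipocyte markers summed to 584 and 436 in spheres and to 115, 319 and 153 in reverted cells and ES cells with and without 4OHT. Lpl, the largest part of both sphere sums, read 325 and 208 in spheres. It read 52.7, 233 and 95.5 in reverted cells and ES cells with and without 4OHT. Fabp4 read 183 and 143 in spheres against 4.63 to 6.07 elsewhere, and Adipoq 12.2 and 12.0 against 3.31 to 6.73. Adipoq lay under the 40th percentile on every array. The adipocyte markers Cfd, Plin1, Pparg, Lpl, Cd36 and Retn overlapped between spheres and ES-type arrays. The part of such cells in the results below was not tested.

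The mu-class transferases Gstm5, Gstm2 and Gstm1 and the peroxidase Gpx3 were higher on each sphere array than on each ES-type array. Gstm5 rose in spheres 13.7-fold, whereas Gsta4, the alpha-class transferase that conjugates the lipid peroxidation product 4-hydroxynonenal, fell 2.62-fold. Both Gclm and Gsta4 were lower on each sphere array than on each ES-type array, and Gpx2 had no value on either sphere array. The promoter windows of the genes were read from the RefSeq table (GRCm38.p6, 250 bases before to 50 after an annotated start), which held 8 of the 10 genes. Gstm5 is shown as the gene that rose, Gstm2 as another mu-class gene of chromosome 3 that was higher on the same arrays, and Gclm as the subunit that was lower. Capitals mark matches, on either strand, to the antioxidant response element core TGACNNNGC and to the AP-1-type motif TGANTCA, which did not overlap each other in these windows.
Gstm5, chr3:107895604-107895903, plus strand: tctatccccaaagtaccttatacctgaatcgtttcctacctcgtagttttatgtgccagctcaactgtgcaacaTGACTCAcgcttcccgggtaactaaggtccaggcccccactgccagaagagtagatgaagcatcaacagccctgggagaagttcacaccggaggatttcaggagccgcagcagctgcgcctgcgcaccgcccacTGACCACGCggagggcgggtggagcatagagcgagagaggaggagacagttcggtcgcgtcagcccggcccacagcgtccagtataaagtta
Gstm2, chr3:107986371-107986670, minus strand: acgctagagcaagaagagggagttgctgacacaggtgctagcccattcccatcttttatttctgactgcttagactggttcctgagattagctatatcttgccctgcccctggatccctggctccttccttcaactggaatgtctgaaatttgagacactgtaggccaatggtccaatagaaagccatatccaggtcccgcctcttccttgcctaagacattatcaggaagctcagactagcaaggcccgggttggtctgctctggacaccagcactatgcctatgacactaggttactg
Gclm, chr3:122245307-122245606, plus strand: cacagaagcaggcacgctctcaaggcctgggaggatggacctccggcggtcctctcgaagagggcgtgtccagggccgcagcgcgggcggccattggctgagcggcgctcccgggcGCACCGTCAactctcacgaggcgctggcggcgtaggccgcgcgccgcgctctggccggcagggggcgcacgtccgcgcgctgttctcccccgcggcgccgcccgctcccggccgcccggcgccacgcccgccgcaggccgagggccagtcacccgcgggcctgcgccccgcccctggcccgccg
The Gstm5 window held the core TGACCACGC 42 bases before the start and TGACTCA 176 bases before it. The Gclm window held 1 core on the opposite strand, read as GCACCGTCA in the printed direction, 134 bases before the start. The Gstm2 window held neither motif, nor did the 2 windows of Gstm1 or those of Gpx1, Gpx2, Gpx3 and Gpx4. Among all 32851 windows of the table, 12.4% held the core and 7.81% held TGANTCA. A match is a run of letters and not a shown binding site.

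**Figure D1:**
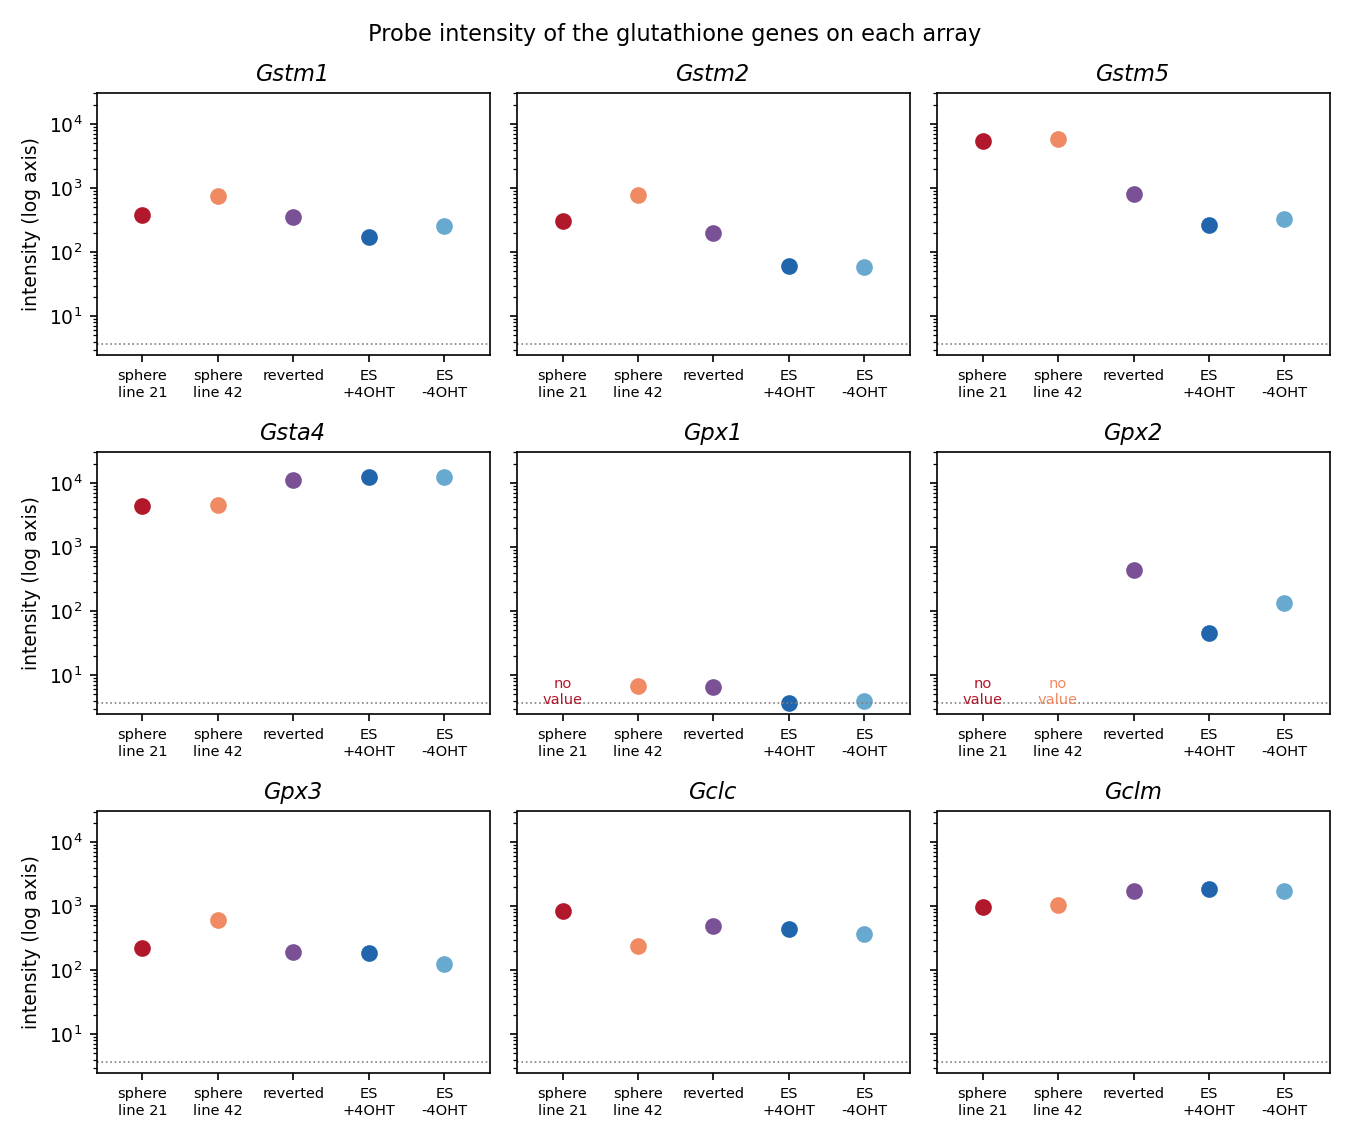
Intensity of each gene's probe (log axis) on the 5 arrays: spheres of lines 21 and 42, reverted cells, and ES cells with and without 4OHT, 1 point per array. The dotted line is 3.66, the highest of the lowest listed values of the arrays; Gstm5 stands at 5431 and 5802 in spheres against 263 to 815 elsewhere, and Gpx2 has no value in either sphere line.

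Spheres were first set against the 3 ES-type cultures together (n = 2 and n = 3), which asks what separates both sphere lines from reverted and ES cells alike. Over 10589 genes limma called 0.963% higher and 1.47% lower at an adjusted p of 0.05, and of the 7 genes compared here it called 1 higher, Gstm5, and 1 lower, Gsta4, beside 2.44% of all genes called either way. At an unadjusted p under 0.05 there were 6 of the 7, against 18.9% of all genes. The median log2 difference of the 7 was 1.09, against 0.00 over all genes. Both spheres lay above all ES-type arrays for 4 of the 7 and below them for 2, against 19.1% and 18.5% of all genes (37.5% either way).

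Gstm5 read 5431 in line 21 and 5802 in line 42 spheres, against 815 in reverted cells, 263 in ES cells with 4OHT and 324 in ES cells without it. The sphere lines lay close together and far above the others, and reverted cells stood between. The log2 difference was 3.77 (SE 0.50, limma adjusted p = 0.0298, higher in 2 of 2 spheres than in 3 of 3 ES-type arrays). Leaving out single arrays kept the log2 difference at 3.42 to 4.26, but limma's call was lost without the line 21 sphere (adjusted p = 0.0831), the line 42 sphere (0.0907), ES cells with 4OHT (0.0867) or ES cells without 4OHT (0.138), and was kept without reverted cells (0.0114).

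Gstm2 read 311 and 792 in spheres of lines 21 and 42, against 202 in reverted cells, 61.6 in ES cells with 4OHT and 58.7 in ES cells without it. Its groups did not overlap, although line 21 spheres lay 1.59-fold above reverted cells. The log2 difference of 2.45 (SE 0.66) missed limma's threshold (adjusted p = 0.127). Leaving out single arrays gave 3.10 without the line 21 sphere (limma adjusted p = 0.146), 1.80 without the line 42 sphere (0.312), 2.15 without ES cells with 4OHT (0.294), 2.18 without ES cells without 4OHT (0.350) and 3.02 without reverted cells (0.0494), which alone passed. Gstm1, a transferase of wide tissue distribution, read 378 and 741 in spheres, against 355 in reverted cells, 170 in ES cells with 4OHT and 254 in ES cells without it. Line 21 spheres and reverted cells were 1.1-fold apart. The log2 difference of 1.09 (SE 0.43) was not called (limma adjusted p = 0.255).

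The other mu-class transferases with a probe were Gstm3, Gstm4 and Gstm7. All 6 mu-class probes had a positive log2 difference, with a median of 1.64, and for 5 of them both spheres lay above all ES-type arrays, as for 19.1% of all genes. The class was taken by symbol, every Gstm probe included, but was described with the values of Gstm3, Gstm4 and Gstm7 in view. Gstm7 read 82.5 and 150.1 in spheres, against 32.4, 36.9 and 22.9 in reverted cells and ES cells with and without 4OHT (log2 1.85, SE 0.33, limma adjusted p = 0.0524). Gstm3 read 514 and 1299 in spheres, against 482, 189 and 314 in the same order (log2 1.42, limma adjusted p = 0.241). Gstm4 read 32.1 and 44.6 in spheres, against 49.8 in reverted cells, 24.0 in ES cells with 4OHT and 20.4 without it, so its groups overlapped (log2 0.37, limma adjusted p = 0.690). Mu-class genes are close relatives, and how far their probes read each other's transcripts was not tested.

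**Figure D2:**
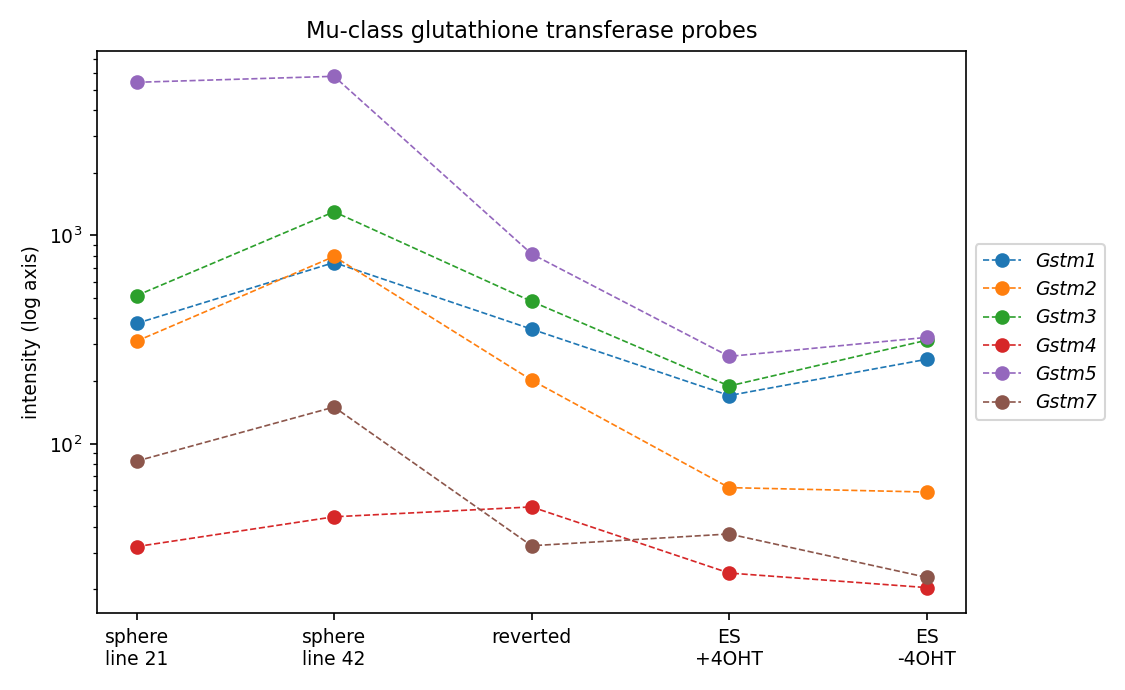
Intensity (log axis) of the 6 mu-class transferase probes on the 5 arrays, with dashed lines joining the points of a gene. Gstm1, Gstm2, Gstm3, Gstm5 and Gstm7 are higher on both sphere arrays than on the other 3, and Gstm4 is highest in reverted cells.

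Gsta4 read 4446 and 4614 in spheres, against 10989 in reverted cells, 12339 in ES cells with 4OHT and 12404 in ES cells without it. The sphere lines read alike, and all 3 ES-type arrays lay above them. The log2 difference was -1.39 (SE 0.22, limma adjusted p = 0.0411). The call was lost under quantile normalization (log2 -1.21, limma adjusted p = 0.0533) and without any 1 of the 5 arrays: the line 21 sphere (0.114), the line 42 sphere (0.109), reverted cells (0.0569), ES cells with 4OHT (0.135) or ES cells without 4OHT (0.189). The log2 difference then stayed between -1.46 and -1.32.

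Among the peroxidases, the secreted Gpx3 read 224 and 597 in spheres of lines 21 and 42, against 189 in reverted cells, 186 in ES cells with 4OHT and 125 in ES cells without it. Both spheres were above the rest, line 42 further than line 21, and the log2 difference of 1.16 (SE 0.44) did not pass (limma adjusted p = 0.235). It was 0.48 without the line 42 sphere and 1.84 without the line 21 sphere. Gpx2, best known from epithelium of the gut, held no value in either sphere line and read 439 in reverted cells, 45.9 in ES cells with 4OHT and 134.6 in ES cells without it. With both sphere cells empty, no difference from spheres was computed for it on the main values. With empty cells set at the lowest listed value, the log2 difference of spheres from the ES-type cultures was -5.03 (limma adjusted p = 0.0525). The size of that difference depends on the value filled in. The probe of Gpx1, a cytosolic peroxidase of most cells, read 6.70 in line 42 spheres, 6.47 in reverted cells, 3.73 and 3.98 in ES cells with and without 4OHT, and held no value in line 21 spheres. These readings lie at or near the lowest listed values, so no order of Gpx1 levels was read from them.

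The ligase subunits differed from each other. Gclm read 962 and 1033 in spheres, against 1752 in reverted cells, 1827 in ES cells with 4OHT and 1691 in ES cells without it. Its groups did not overlap and its spread was small on both sides (log2 -0.81, SE 0.21), yet limma's adjusted p was 0.117. Gclc read 833 in line 21 spheres and 237 in line 42 spheres, against 493 in reverted cells, 432 in ES cells with 4OHT and 367 in ES cells without it. The sphere lines lay on either side of all ES-type arrays, and the mean log2 difference was 0.06 (SE 0.54, limma adjusted p = 0.968).

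**Figure D3:**
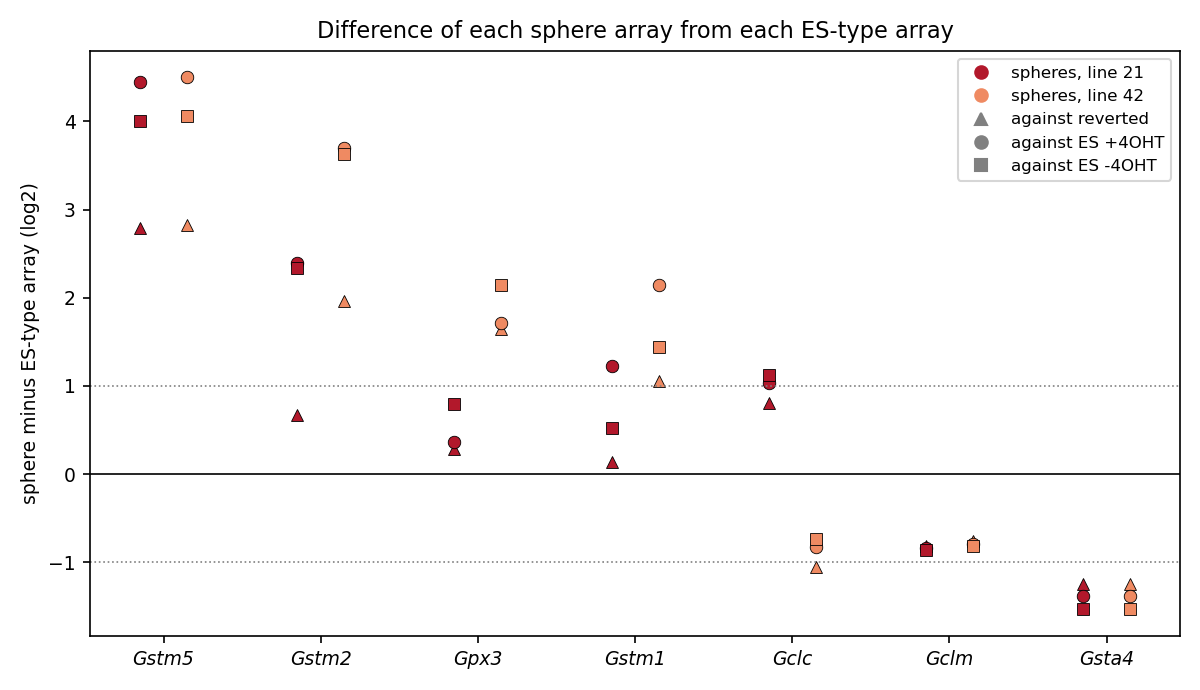
Log2 difference of each sphere array (colour) from each ES-type array (symbol) for the 7 genes with values on all arrays; dotted lines mark 2-fold. Gstm5 lies between 2.79 and 4.50, Gsta4 between -1.53 and -1.25, and Gclc is positive in line 21 and negative in line 42.

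Likeness to the 2 called genes was measured over the 5 arrays as the root mean square distance between gene-centred log2 values. Of 10588 genes, those nearest to Gstm5 were Auts2 (0.39), Cpeb1 (0.39), a regulator of messenger RNA translation, and Dhrs7 (0.44), a short-chain dehydrogenase. Those nearest to Gsta4 were G3bp2 (0.06), a stress granule protein, Fam241b (0.06) and Gsdmd (0.07), the pore-forming gasdermin D.

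The wider glutathione and antioxidant system was read from 7 lists, to be set against the 18.9% of all genes at an unadjusted p under 0.05 and the 2.44% that limma called. Of 16 other glutathione transferases compared (21 of 24 with a probe), limma called 0, with 5 at an unadjusted p under 0.05 and a median log2 difference of 0.19. Of 12 other peroxide and superoxide enzymes it called 0, with 6 unadjusted and a median of -0.76. Of 12 genes of glutathione and thioredoxin reduction it called 0 (2 unadjusted, median 0.04), of 4 genes of glutathione synthesis and cysteine supply 0 (1 unadjusted, -0.06), of 6 genes of glutathione breakdown 0 (3 unadjusted, -0.36), and of 11 selenoprotein and selenium genes 0 (1 unadjusted, 0.10). In the Nrf2 pathway list, limma called 1 of 22 lower and 0 higher (8 unadjusted, median -0.47), and 11 were lower on both sphere arrays than on all ES-type arrays while 0 were higher on both, against 18.5% and 19.1% of all genes. The called gene was Cbr3, a carbonyl reductase, at 70.5 and 42.7 in spheres, against 382, 1144 and 1059 in reverted cells and ES cells with and without 4OHT (log2 -3.79, SE 0.56, limma adjusted p = 0.0374). Its call was kept without reverted cells (adjusted p = 0.0148) and lost without any other single array, with limma adjusted p of up to 0.152.

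**Figure D4:**
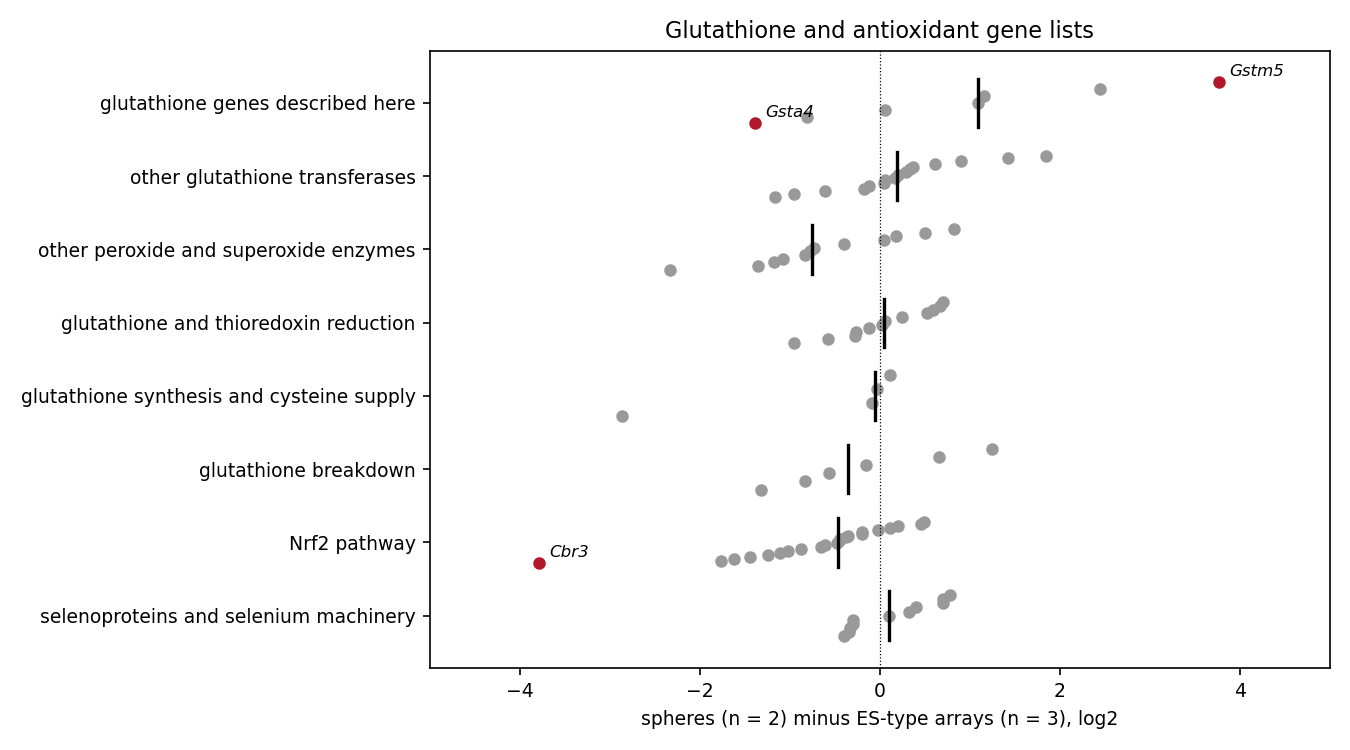
Log2 difference of spheres from the ES-type arrays for the genes described here and for the 7 further lists, 1 point per gene, with the median as a black bar. Red points passed limma: Gstm5 (3.77), Gsta4 (-1.39) and Cbr3 (-3.79).

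Spheres were then compared with line 21 ES cells with 4OHT, where the kinase is switched on as well. By a rule that asks for a 2-fold difference in each sphere line, 5.98% of 10407 genes were higher, 6.86% lower and 12.8% either, and of the 7 genes 3 were higher and 1 lower. Gstm5 was 22.2-fold, Gstm2 8.29-fold and Gstm1 3.23-fold higher, and Gsta4 was 2.61-fold lower. Gpx3 (log2 1.04), Gclm (-0.81) and Gclc (0.10) did not reach 2-fold in both lines. limma, with 1 residual degree of freedom from the spheres and each lone array assumed to vary as they do, called 0 genes of all (11.6% at an unadjusted p under 0.05). For the 7 the unadjusted count was 4, and the smallest adjusted p was that of Gstm5 (log2 4.47, SE 0.40, limma adjusted p = 0.152).

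By the same 2-fold rule, Gstm3 (log2 2.17), Gstm7 (1.63) and the mitochondrial and peroxisomal transferase Gstk1 (1.25) were higher in spheres than in ES cells with 4OHT. Glutathione reductase, Gsr, read 915 and 942 in spheres against 398 (log2 1.28), and the peroxiredoxin Prdx4 was higher by log2 1.09. Gpx8 (-2.47), Gpx7 (-1.99) and catalase, Cat (-1.24), were lower. Cth, which makes cysteine from cystathionine, read 364 and 154 in spheres against 3442 (log2 -3.80). In glutathione breakdown Chac1 was lower (-2.23) and Ggct, gamma-glutamylcyclotransferase, higher (1.67). In the Nrf2 pathway 5 genes were lower and 0 higher: Cbr3 (-4.30), the quinone reductase Nqo1 (-2.93), Nfe2l2 itself (-2.03), the biliverdin reductase Blvrb (-1.73) and the ferritin light chain Ftl1. Nfe2l2 read 188 and 99.0 in spheres against 586, and Nqo1 73.2 and 80.6 against 616. Of the selenoprotein list 0 were called either way.

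Against ES cells without 4OHT, 4.51% of 10283 genes were at least 2-fold higher in both sphere lines and 6.01% lower. Of the 7 genes 2 were higher, Gstm5 (16.4-fold) and Gstm2 (7.92-fold), and 1 lower, Gsta4 (2.88-fold). Gstm1 was 1.44-fold higher in line 21 and 2.71-fold in line 42, Gpx3 had a mean log2 difference of 1.46, Gclm of -0.84 and Gclc of 0.20. limma called 0 genes (9.37% unadjusted, 3 of the 7), with Gstm5 at log2 4.04 (SE 0.40, limma adjusted p = 0.196). In the lists Gstm7 (log2 2.16) was higher, and Gstt2 (-1.39), a theta-class transferase, Gpx7 (-1.68), the superoxide dismutase Sod1 (-1.38), Cth (-1.94), Cbr3 (-4.32) and Nqo1 (-1.57) were lower. Lists of thiol reduction, glutathione breakdown and selenium genes had 0 genes past the 2-fold rule.

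Reverted cells were compared with spheres to ask which values lay apart after the return to ES-type culture. In reverted cells 5.81% of 10328 genes were at least 2-fold higher than in both sphere lines and 4.21% lower, and of the 7 genes 1 was higher and 1 lower. Gsta4 was 2.39-fold higher and Gstm5 7-fold lower in reverted cells. Gstm2 had a mean log2 difference of -1.32, Gpx3 of -0.97, Gclm of 0.79, Gstm1 of -0.60 and Gclc of 0.12. None of these was at least 2-fold in both pairings. Against line 21 spheres alone, from which the reverted cells came, they were -0.67, -0.29, 0.81, -0.14 and -0.81 in the same order. The mean for Gclc joins opposite signs in the sphere lines. limma called 0 genes (8.91% unadjusted, 2 of the 7), with adjusted p = 0.243 for Gstm5. In the lists, Gpx8 (2.92), Cth (2.88), Cbr3 (2.75), Blvrb (1.93), Maff (1.80), Cat (1.76), Glrx (1.13) and Ugdh (1.10) were higher in reverted cells, and Gstm7 (-1.77), Chac1 (-1.46) and Ggct (-1.31) were lower.

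Reverted cells were also set against ES cells without 4OHT, with 1 array each and no replicate check. At least 2-fold apart were 5.18% of 9939 genes higher and 6.34% lower, and of 8 genes 3 were higher and 0 lower. Without centring the balance over all genes turned, with 54.4% of those 2-fold apart higher against 45.0% with centring, and the median over all genes was 0.10 in place of 0.00. The 3 genes were then still past 2-fold. Gstm2 was 3.18-fold (202 against 58.7), Gpx2 3.03-fold (439 against 134.6) and Gstm5 2.34-fold (815 against 324) higher in reverted cells. Gstm1 (log2 0.38), Gpx3 (0.49), Gclc (0.33), Gsta4 (-0.27) and Gclm (-0.05) were less than 2-fold apart. All 6 mu-class probes had a positive difference, from log2 0.38 in Gstm1 to 1.67 in Gstm2, with Gstm4 at 1.15. Their median was 0.83, against 0.00 over all genes, and the share of all genes with a positive difference was not counted. The pi-class Gstp2 was higher (1.21), and the alpha-class Gsta3 (-1.53), Gstt1 (-1.21) and Gsto1 (-1.18) were lower. Gpx8 (1.30) and Cat (1.23) were higher and Gpx7 (-1.30) lower, as were Glrx5 (-1.35), Chac1 (-1.15) and Anpep (-1.08, or -0.98 without centring, which is under 2-fold). In the Nrf2 list 5 genes were higher, among them Mafk and Me1 (1.34 each) and Ugdh (1.21), and Cbr3 (-1.57) was lower. As given above, the stroma and fibroblast markers summed to 1292 in reverted cells and 1255 in ES cells without 4OHT (456 and 315 without Thy1 and Acta2), while Col1a1 read 36.0 and 18.6; their part in these differences was not tested.

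For the effect of 4OHT in ES cell culture, line 21 ES cells with and without it were compared, again with 1 array each. Of 8 genes 0 were at least 2-fold higher and 1 lower, against 2.56% and 2.40% of 9852 genes (4.95% either way). Gpx2 read 45.9 with and 134.6 without 4OHT (3.18-fold lower). Gstm1 (log2 -0.71), Gstm5 (-0.44), Gpx3 (0.43), Gsta4 (-0.14), Gclc (0.10), Gstm2 (-0.07) and Gclm (-0.02) were less than 2-fold apart. Other transferases were lower with 4OHT: Gsto1 of the omega class read 268 with and 1250 without it (log2 -2.35), Mgst1, a microsomal transferase, 22.1 and 79.8 (-1.95), and Gstt1 84.1 and 156.9 (-1.03, or -0.89 without centring, which is under 2-fold). The glutaredoxin Glrx was lower (-1.23). Cth read 3442 with and 864 without 4OHT (log2 1.86), Chac1 was higher by 2.54, and Nqo1 (1.36) and heme oxygenase, Hmox1 (1.07), were the 2 of 22 Nrf2 pathway genes at least 2-fold higher. Without centring of the arrays, 68.6% of all genes at least 2-fold apart were higher with 4OHT, against 51.6% with centring, and the median over all genes was 0.11 in place of -0.03.

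Between the sphere lines, 7.87% of 9954 genes were at least 2-fold higher and 7.81% lower in line 42 than in line 21, and of the 7 genes 2 were higher and 1 lower. Gpx3 was 2.56-fold and Gstm2 2.45-fold higher in line 42, and Gclc 3.63-fold lower. Gstm1 was 1.89-fold higher in line 42, while Gstm5 (log2 0.04), Gclm (0.05) and Gsta4 (0.00) read nearly the same in both. In the lists, Gstm3 (1.28), the glutathione synthetase Gss (1.55), the mitochondrial glutaredoxin Glrx5 (1.57), Txnip (1.40), the sulfiredoxin Srxn1 (1.36), Pgd (1.42), Gpx6 (1.13) and Sqstm1 (1.01) were higher in line 42. Lower were Ggt1 (-2.11), Mgst1 (-2.08), Gstt3 (-1.98), Gpx8 (-1.52), Cth (-1.29), Gstt1 (-1.12) and Maff (-1.11).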

How the data were processed

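The deposited table holds the authors' probe intensity values of 5 one-colour (Cy5) arrays. Per the labels' protocols, amplified RNA carried amino allyl groups and was coupled to dye by Toray's protocol. Sources used here do not state the scanner, background correction, normalization or why cells are empty. Empty cells were read as under the floor and not filled in, except in the alternative that set them at the lowest listed value. Of 22871 probes 16264 had 1 symbol; 12239 symbols matched RefSeq (GRCm38.p6), 3787 were updated through a synonym and 61 kept, giving 16032 genes, each by its probe with the highest mean (221 had several). Values were taken to log2(value + 1) and arrays centred on the median of 18884 probes listed on all. limma 3.58.1 in R 4.3.3 (lmFit, eBayes, Benjamini-Hochberg, threshold 0.05) was fitted over all genes and tested on simulated data. Single arrays were compared by a 2-fold rule without a test. Alternatives covered the pseudocount, centring, the filter, probe choice, empty cells and leaving out arrays. All 10 genes are named; from other lists, at most the 4 largest differences past the test or 2-fold rule per list and comparison, with exceptions chosen after their values were seen: Gstm3, Gstm4 and Gstm7 in the comparison with all ES-type cultures, Gstm4 in reverted cells, Ftl1, and the closing section's genes. The genes and lists were chosen with earlier results of these data known. Gpx4 is not reported here.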

Additional observations from a re-analysis of the deposited data

Results flagged for a closer look

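Among the 90 genes of the 10 and of the 7 lists that were compared, those whose 2 sphere lines lay on opposite sides of all 3 ES-type arrays were looked for. There were 4 (4.44%), against 9.26% of all 10589 genes, so the count is no more than the share over all genes, and with 1 array per line the difference was not tested. Gclc was 1.86 log2 units lower in line 42 than in line 21 (line 42 minus line 21, -1.86), with 237 in line 42 and 833 in line 21 spheres against 367 to 493 elsewhere. Gss, the enzyme of the next step of glutathione synthesis, differed by 1.55 the other way, with 246 in line 42 and 80.0 in line 21 spheres against 91.0 to 242 elsewhere, so that line 42 lay barely above ES cells with 4OHT. Txnip, an inhibitor of thioredoxin, differed by 1.40, with 1144 and 417 against 552 to 847, and Gpx6 by 1.13, with 67.1 and 29.1 against 38.4 to 51.7.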

How the results depend on the processing

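Under the alternatives other than leaving out arrays (pseudocount 16, no centring, quantile normalization, no filter, a filter at the 60th percentile, the mean over probes, empty cells at the lowest listed value), Gstm5 passed limma in spheres against the ES-type cultures in 7 of 7 (adjusted p 0.0224 to 0.0319) and Gsta4 in 6 of 7 (0.0289 to 0.0533), and no called difference changed sign in any alternative. Leaving out 1 array, limma called 0 to 284 genes in place of 258: 284 without reverted cells, 148 without the line 21 sphere, 98 without that of line 42, 32 without ES cells with 4OHT and 0 without ES cells without 4OHT. With 1 sphere array in place of 2, genes at least 2-fold apart from ES cells with 4OHT numbered 2132 to 2702 in place of 1336, from ES cells without 4OHT 1890 to 2266 in place of 1082, and from reverted cells 1705 to 2284 in place of 1035; the rule then asks for 1 pairing only. For ES cells with against without 4OHT, 488 genes became 311 with pseudocount 16, 752 with no filter and 313 with the stricter filter. Without centring, 5 of the named genes' 2-fold calls were lost: Prdx4 in spheres against ES cells with 4OHT, Gstt2 in spheres against ES cells without it, Ggct in reverted cells against spheres, and the Gstt1 and Anpep calls given above. Calls were gained for Sod1 in spheres against ES cells with 4OHT and for Mgst3 in reverted cells against spheres. Slc3a2 and Ephx1 in ES cells with against without 4OHT, and Cth in reverted cells against ES cells without 4OHT, were gained too. In the 3 comparisons of spheres with 1 lone array, limma called 0 genes under each of the 7. No analysis paired over both lines was possible because line 42 gave only a sphere array. Cell line could be held fixed only within line 21, with 1 array per culture and no test. There, spheres differed from the ES-type arrays by log2 2.79 to 4.45 in Gstm5 and by -1.53 to -1.25 in Gsta4. Values at or near the lowest listed intensity, such as those of Gpx1, have no order.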

Other observations

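The selenoprotein and selenium list had no gene at least 2-fold apart in any of the 6 comparisons judged by that rule, over 11 genes compared. Over all genes the shares were 4.95% to 15.7%, so a count of 0 of 11 in any single comparison says little of the list. The 6 comparisons share arrays, and their counts were not tested together. Its members include Pstk, a kinase that makes the precursor of selenocysteine, at 284 and 494 in spheres against 305, 170 and 202 in reverted cells and ES cells with and without 4OHT, and Selenow at 39.5 and 37.8 against 43.7, 65.4 and 47.4. Both were picked with their values in view.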
